A study of Homo sapiens with 8 samples.

Results

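The TGF-beta superfamily ligands GDF11, GDF15, TGFB1, TGFB2, TGFB3, INHBA, INHBB, BMP2, BMP4 and BMP7 were followed through RNA-seq libraries of OVCAR3 cells, an established line from a high-grade ovarian carcinoma. These 10 genes were found by matching the transcript names of the 20165 rows in each count table to gene symbols, and all 10 had a row. The list was chosen by the counts of GDF11, which changed strongly between siTARG1 and siControl cells, so the ligands' values in that comparison are given as a description, with no p-value for any ligand, and nothing rests on how many of them passed a threshold there. The comparison of RACK1-Mut with RACK1-WT was not used to choose them and was tested. Of the 10 ligands, 8 passed the filter on low counts, as did 14024 genes in all. INHBA and BMP2 did not pass.

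siTARG1 cells received 30 nM of an siRNA against OARD1, the gene that encodes TARG1, an enzyme that takes mono(ADP-ribose) (MAR) off aspartate and glutamate residues, and siControl cells received the same amount of a control siRNA. The study's methods list a pair of TARG1 siRNAs and do not say which was sequenced. The cells of the RACK1-WT and RACK1-Mut groups carried a doxycycline (Dox)-inducible hairpin against endogenous RACK1, a scaffold protein of the small ribosomal subunit, and a Dox-inducible HA-tagged RACK1. In RACK1-Mut the aspartate and glutamate residues that accept MAR were changed to asparagine and glutamine. Both lines had been transduced with lentivirus and drug-selected, neither is stated to be a clone, and both received 1 µg/ml Dox. All cells were harvested 48 h after transfection or Dox, and there were 2 libraries in each of the 4 groups. The study's methods describe the samples of its sequencing experiments as biologically independent, and the labels do not say how the replicates were separated. P-values measure the spread between these libraries, pooled over the 4 groups and with information shared across genes.

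Ligands of this superfamily are secreted as dimers cut from larger precursors, and many are held in the matrix or by soluble inhibitors until they are released. They bring together type I and type II serine/threonine kinase receptors. The receptors of TGF-beta, activin and GDF11 act through SMAD2 and SMAD3, and those of most BMPs through SMAD1, SMAD5 and SMAD9. In the ovary, activin and BMP signals are known for their part in follicle growth, and GDF15, a distant member of the family, is known as a secreted marker of cell stress.

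The libraries held 30989049 to 42668783 exon counts. OARD1 was at 48.5 and 52.0 CPM (counts relative to the TMM-scaled library total, as edgeR gives them) in the siControl libraries and at 3.10 and 3.97 in the siTARG1 libraries (log2 fold change -3.83 with a standard error of 0.12, and a Benjamini-Hochberg adjusted p = 1.2e-10 in edgeR's quasi-likelihood fit). RACK1 was at 4622 and 4516 CPM in siControl, 1762 and 1898 in RACK1-WT, and 1397 and 1454 in RACK1-Mut. RACK1-WT held 40.1% and RACK1-Mut 31.2% of the siControl mean, and these counts do not separate endogenous from re-expressed RNA. Between the RACK1 lines its log2 fold change was -0.36, past the threshold in DESeq2 (adjusted p = 0.0041) but not in edgeR (adjusted p = 0.30). RACK1-Mut thus had less total RACK1 RNA than RACK1-WT, and whether this bears on the ligands was not tested. All 9 ovarian carcinoma markers were detected. Their summed level was 3860 to 4059 CPM in siControl, 2371 to 2483 in siTARG1 and 4011 to 4143 in the RACK1 lines. In siTARG1 5 of the 9 were lower (adjusted p under 0.05 in edgeR), KRT8 and KRT18 among them, beside 23.1% of all genes. KRT7 rose (log2 fold change 0.44, standard error 0.10). The sum in the RACK1 lines covers unlike markers: in RACK1-WT MSLN was at 750%, KRT7 at 347% and MUC16 at 39.0% of the siControl mean. The summed fibroblast markers stayed between 7.23 and 9.63 CPM, most of which was COL1A1. Among the others, PDGFRB went from 0.240 CPM in siControl to 0.797 in siTARG1, and COL3A1 from 3 and 5 counts to 0 and 0. The leukocyte and endothelial markers summed to between 5.89 and 9.85 CPM, with CD3E at 0 in every library, CDH5 at 0 in 6 of 8 and CD68 lower in siTARG1. The part of these shifts in the ligands' values was not tested. In bulk RNA, fewer cells that make a transcript and less transcript per cell cannot be told apart.

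GDF11, an activin-like ligand that binds the type II receptors ACVR2A and ACVR2B, was the ligand with the greatest difference between the siRNA groups. Its gene spans chr12:56136906-56151048 on the plus strand (GRCh37, Gencode release 44 lifted to that build). It was at 165 and 176 CPM in the siControl libraries and at 37.1 and 39.7 CPM in the siTARG1 libraries, from 6590, 5379, 1567 and 1658 counts. Both siTARG1 libraries lay far below both siControl libraries, at 22.5% of the siControl mean. The log2 fold change was -2.15 (standard error 0.08), a level 4.45-fold lower. Of the 14024 genes tested, 92 (0.656%) had a lower log2 fold change, and only 3 of those had a mean CPM as high as that of GDF11. In the RACK1 lines GDF11 was at 115 and 128 CPM with RACK1-WT and at 126 and 132 CPM with RACK1-Mut. These sat between the levels of the siRNA groups, and the RACK1-WT and RACK1-Mut libraries overlapped.

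**Figure D1:**
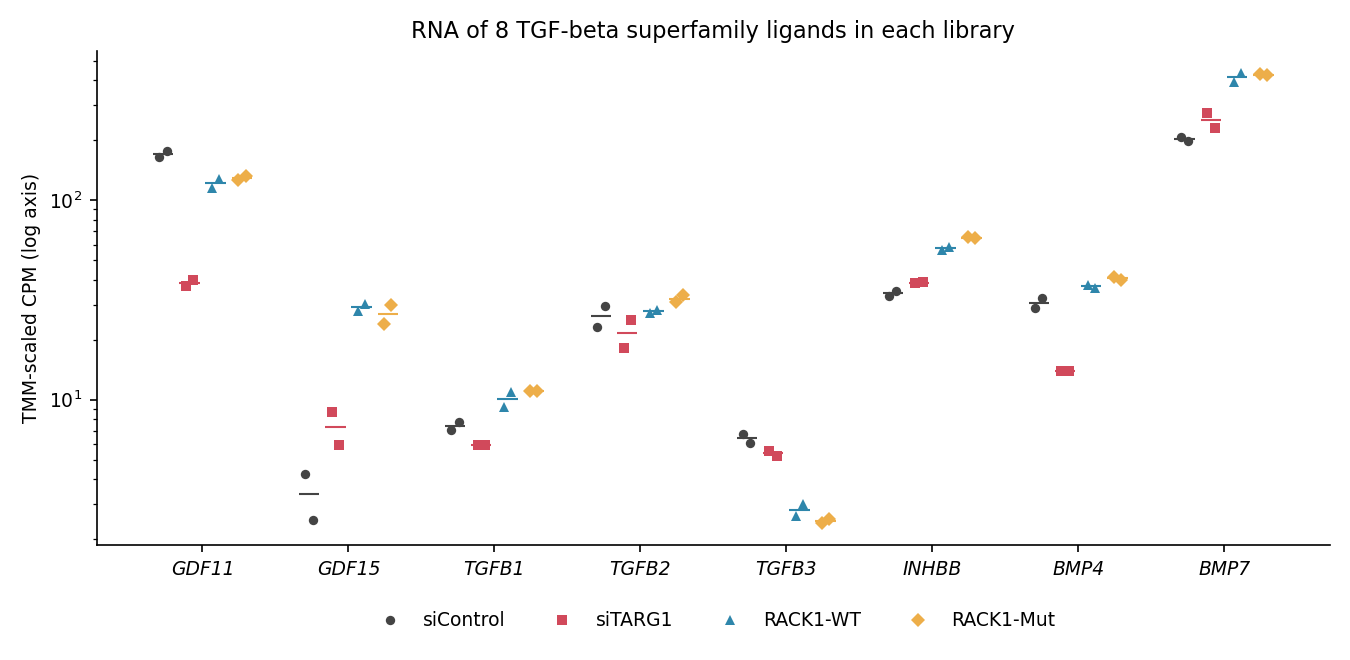
RNA level of the 8 ligands that passed the filter, in TMM-scaled CPM on a log axis, with a point for each of the 8 libraries and a short line at each group mean. GDF11 goes from 165 and 176 CPM in siControl to 37.1 and 39.7 CPM in siTARG1, while its RACK1-WT and RACK1-Mut points overlap.

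The GDF11 row counts 1224 bases of coding sequence and 7396 bases of 3′ untranslated region. Its 5′ region has only 37 bases and held no count in any library, nor did the 5′ region of INHBB, of 46 bases. Over the coding sequence GDF11 was at 35.6 ± 0.07 CPM in siControl and 10.4 ± 0.60 in siTARG1 (mean ± SD, n = 2), or 29.1% of siControl. Over the 3′ untranslated region it was at 135 ± 7.6 and 28.0 ± 2.4 CPM, or 20.7%. Both regions were lower in both siTARG1 libraries. The number of counts in the 3′ untranslated region for each count in the coding sequence was 3.64 and 3.95 in siControl, 2.44 and 2.99 in siTARG1, 3.33 and 3.28 in RACK1-WT, and 3.08 and 3.48 in RACK1-Mut. The siTARG1 ratios were the lowest of the 8, and with coding-sequence counts alone the log2 fold change of GDF11 was -1.76.

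**Figure D2:**
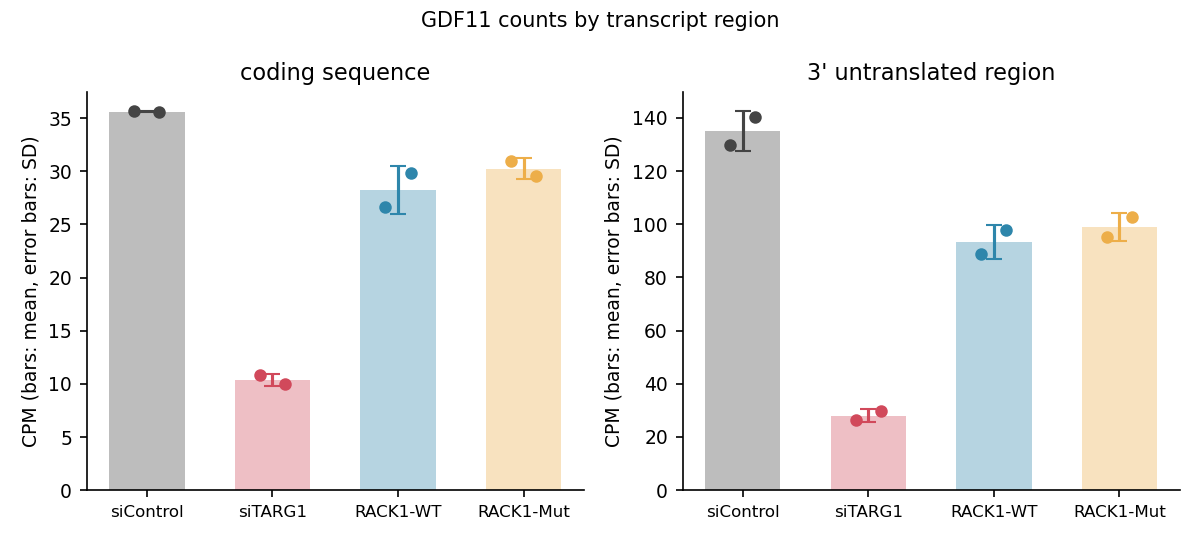
GDF11 CPM over its coding sequence (left) and its 3′ untranslated region (right), with bars for the mean of 2 libraries, error bars for the SD and a point for each library. Both regions are lower in siTARG1, at 29.1% of siControl in the coding sequence and 20.7% in the 3′ untranslated region.

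The sites below are shown because GDF11 is the only ligand of the 10 whose 3′ untranslated region holds the word TGAACAT, which an earlier scan of the fold changes of these same siRNA libraries had picked out as going with lower RNA in siTARG1. The word was searched on the transcript's strand in the longest 3′ untranslated region of the transcripts counted in each row, and it is in capitals, with 11 bases before it and 12 after it. GDF11 holds it at 2 places that start 158 bases apart. OARD1, the gene targeted, holds it at 2 places as well, and the type II receptors ACVR2B and BMPR2 hold 1 and 2. Of 26 pathway genes named below by rule, 11 were lower in siTARG1, and 4 of those 11 hold the word. ITGB8 holds it at 2 places and was higher (log2 fold change 0.80). Of the 5 genes named below as most like GDF11, a likeness that itself selects for lower levels in siTARG1, 1 holds it. All sequences were read from Gencode transcripts on GRCh37.
OARD1, chr6:41035050-41035079, minus strand: ctctgaaccagTGAACATtttggatgtttc
OARD1, chr6:41032560-41032589, minus strand: gattgtatatcTGAACATtaaactactact
GDF11, chr12:56146181-56146210, plus strand: tctttctcttaTGAACATaaatctgtgagc
GDF11, chr12:56146339-56146368, plus strand: cagtgcccctcTGAACATatcattattagt
ACVR2B, chr3:38528749-38528778, plus strand: tttttcagcctTGAACATcttcaggaggat
BMPR2, chr2:203425117-203425146, plus strand: tgatacgttccTGAACATattatcttgttg
BMPR2, chr2:203430718-203430747, plus strand: attaaacattgTGAACATacacatttttaa

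Of the 13747 genes tested that have an annotated 3′ untranslated region, 12.2% held the word once and 2.93% held it at 2 or more places. Long regions held it more often: among the 1117 genes with at least 5000 bases, as GDF11 has, 50.9% held it and 18.4% held it at 2 or more places. The median log2 fold change in siTARG1 was 0.03 over the 11674 genes without the word, -0.12 over the 1670 with 1 place and -0.20 over the 403 with 2 or more. Of those 403 genes, 44.4% had an adjusted p under 0.05 in edgeR with a lower level and 15.9% with a higher level, beside 23.2% and 23.7% of all 13747. In RACK1-Mut against RACK1-WT the same medians were 0.00, 0.01 and 0.02. BMP4, the other ligand well below its siControl level, does not hold the word. Because the word came from this comparison, its presence is a description and its part in the level of GDF11 was not tested.

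BMP4 (chr14:54416454-54425479, minus strand), a ligand of BMP type I receptors, was at 28.8 and 32.3 CPM in siControl and at 13.9 CPM in both siTARG1 libraries. The groups did not overlap, and the log2 fold change was -1.13 (standard error 0.09), or 45.6% of the siControl mean. Its coding sequence was at 44.8% and its 3′ untranslated region at 46.6%, a like share in both. In the RACK1 lines BMP4 was at 37.7 and 36.5 CPM with RACK1-WT and at 41.3 and 39.9 CPM with RACK1-Mut. Every RACK1 library was above the siControl range.

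BMP7 (chr20:55743809-55841697, minus strand), which binds BMP and activin type II receptors, had the highest level of the ligands per kilobase of exon in every library. It was at 209 and 199 CPM in siControl, 275 and 230 in siTARG1, 394 and 434 in RACK1-WT, and 429 and 425 in RACK1-Mut. The siTARG1 libraries were above the siControl libraries (log2 fold change 0.31, standard error 0.08), but the siTARG1 replicates differed by more than the siControl ones did, and without siTARG1 replicate 1 the log2 fold change was 0.17. Its coding sequence and 3′ untranslated region were both at 124% of siControl. BMP2, a close relative of BMP4, was near 0, with 4 counts in all over 3 libraries and none in siControl. Its highest count, 2, is under the floor of 3 counts per library used here, which is 0.0697 to 0.0981 CPM depending on the library.

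GDF15 (chr19:18485541-18499986, plus strand) moved the other way from GDF11. It was at 4.26 and 2.49 CPM in siControl and 8.66 and 5.91 in siTARG1, from 170, 76, 366 and 247 counts. The groups did not overlap, though the replicates within each differed widely, with replicate 1 the higher in both groups. The log2 fold change was 1.08 (standard error 0.22) and ran from 0.77 to 1.56 when single libraries were left out. With RACK1-WT it was at 27.9 and 30.3 CPM and with RACK1-Mut at 24.02 and 29.9. The RACK1 lines thus held far more GDF15 RNA than the siRNA libraries, at 863% and 799% of the siControl mean. These were separate experiments that differ in line, vector, Dox and transfection, which cannot be told apart, and levels were not tested between them.

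The TGF-beta genes proper, whose products are kept latent until released, differed little. TGFB1 (chr19:41807492-41859827, minus strand) was at 7.05 and 7.75 CPM in siControl and 5.91 and 5.96 in siTARG1 (log2 fold change -0.31, standard error 0.12). TGFB2 (chr1:218518678-218617961, plus strand) was at 23.1 and 29.6 CPM against 18.2 and 25.2 (-0.28, standard error 0.14). TGFB3 (chr14:76424440-76449354, minus strand) was at 6.75 and 6.08 CPM against 5.51 and 5.24 (-0.26, standard error 0.13). All 3 had lower means in siTARG1, and the groups overlapped for TGFB2 alone. Replicate 2 was the higher TGFB2 library in both siRNA groups, and siTARG1 was the lower group at each replicate number. Leaving out single libraries moved the log2 fold change of TGFB2 between -0.54 and -0.06. In the RACK1 lines TGFB1 was at 9.15 and 10.97 CPM with RACK1-WT and 11.01 and 11.08 with RACK1-Mut, and TGFB2 at 27.4 and 28.3 against 30.8 and 33.5. TGFB3 was at 2.61 and 2.99 CPM against 2.42 and 2.53. It was the only ligand of the 8 for which every RACK1 library was below every siRNA library.

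INHBB (chr2:121103712-121109379, plus strand), which encodes the beta B subunit of activin and inhibin, was at 33.2 and 35.1 CPM in siControl and 38.4 and 39.0 in siTARG1 (log2 fold change 0.18, standard error 0.07). It was at 56.2 and 58.4 CPM with RACK1-WT and 65.1 and 64.8 with RACK1-Mut. Neither comparison had overlapping libraries. INHBA, which encodes the beta A subunit, had 11 counts in all, at most 3 in a library, and was at or under the floor throughout. The INHBA row counts no coding bases, and 4420 of its 4524 exon bases are 3′ untranslated region.

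**Figure D3:**
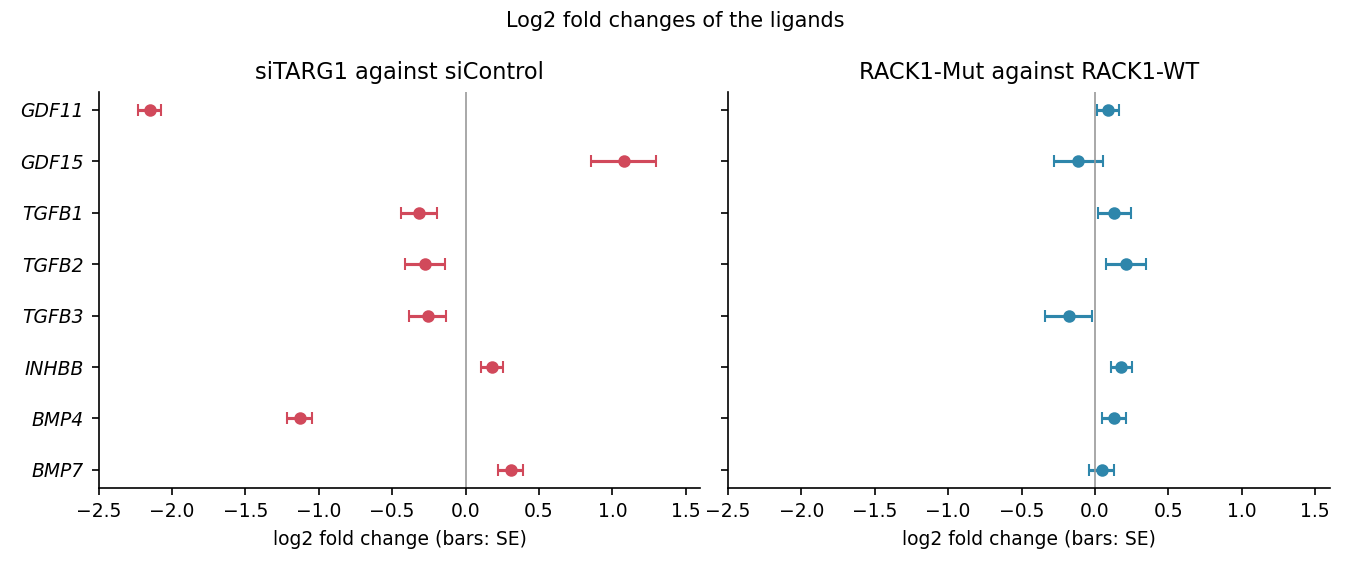
Log2 fold changes of the 8 ligands that passed the filter in siTARG1 against siControl (left) and RACK1-Mut against RACK1-WT (right), with bars for the standard error. On the left GDF11 lies at -2.15 and GDF15 at 1.08, and on the right all 8 lie between -0.18 and 0.21.

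In siTARG1 against siControl, 5 of the 8 ligands had an adjusted p under 0.05 in edgeR's quasi-likelihood fit, 2 of them higher and 3 lower, and 4 did in DESeq2. Over all genes tested 46.6% passed, 23.5% higher and 23.1% lower. Libraries did not overlap for 7 of the 8, against 70.0% of all genes. The median log2 fold change of the 8 was -0.27, and that of all genes 0.01. Nothing is read from these counts, since this comparison chose the list. Without siTARG1 replicate 1, 3 ligands passed.

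In RACK1-Mut against RACK1-WT no ligand passed in edgeR's quasi-likelihood test or in DESeq2, and 1 had an unadjusted p under 0.05 by each. Over all genes 0.00713% passed in edgeR, which is a single gene, and 4.90% had an unadjusted p under 0.05. INHBB was the ligand with the low unadjusted p, 1.13-fold higher in RACK1-Mut (log2 fold change 0.18, standard error 0.07, 95% interval 0.03 to 0.33, adjusted p = 0.98 from edgeR). Its adjusted p ran from 0.39 to 1 over the alternatives tried. Libraries did not overlap for 5 of the 8 ligands, against 37.8% of all genes.

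The 95% intervals from the same fit bound how far the RACK1 lines could differ at this depth. For GDF11 the log2 fold change was 0.09 with an interval of -0.07 to 0.25. BMP4 had 0.13 (-0.04 to 0.30) and BMP7 0.05 (-0.13 to 0.23). The intervals of GDF15 (-0.46 to 0.24) and TGFB3 (-0.52 to 0.16) were wider, and those of TGFB1 and TGFB2 ran from -0.11 to 0.38 and from -0.08 to 0.50. Each of these intervals includes no difference, and none shows that the lines were alike. The sign of GDF15 depended on RACK1-Mut replicate 1 (0.037 without it) and that of BMP7 on RACK1-WT replicate 1 (-0.023 without it). A median of 0.11 over the 8 stood beside 0.00 over all genes, with 6 ligands higher and 2 lower.

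Per kilobase of exon, the order of the ligands differed between the groups. In siControl BMP7 was at 50.8 CPM per kilobase, GDF11 at 19.7, BMP4 at 14.5, INHBB at 10.7 and TGFB2 at 5.30, each separated from the next by more than its spread. GDF15, TGFB1 and TGFB3 followed at 2.81, 2.67 and 2.54, with overlapping libraries. In siTARG1 GDF11 took the fifth place at 4.43 CPM per kilobase, not separated from TGFB2 at 4.36, and below BMP7 at 62.9, INHBB at 12.1, BMP4 at 6.62 and GDF15 at 6.07, the last pair overlapping. TGFB1 and TGFB3 closed the order at 2.14 and 2.13, also overlapping. GDF11 was in the second place in siControl and in the fifth in siTARG1. In RACK1-WT GDF15 was second at 24.3 CPM per kilobase after BMP7 at 103, then came INHBB at 17.9 and BMP4 at 17.6, which overlapped, and GDF11 at 14.0. TGFB2, TGFB1 and TGFB3 were at 5.60, 3.63 and 1.11. RACK1-Mut had the same order, with GDF15 at 22.5 and INHBB at 20.3 overlapping, BMP4 at 19.3 and GDF11 at 14.9.

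The genes whose pattern over the 8 libraries was most like that of GDF11 were RNF130, CXCL1, CAPNS1, ERLIN2 and TLCD1, by the root-mean-square difference of log2 CPM with each gene centred on its mean. The differences were 0.13, 0.14, 0.14, 0.14 and 0.15. RNF130, a membrane ubiquitin ligase, was at 201 CPM in siControl, 49.9 in siTARG1, 133 in RACK1-WT and 142 in RACK1-Mut, close to GDF11 in each group. CXCL1, a chemokine, was at 107, 26.5, 93.4 and 89.4 CPM. All 5 had log2 fold changes between -2.07 and -1.86 in siTARG1. The measure of likeness includes the siTARG1 and siControl libraries, so a change close to that of GDF11 was built into the choice. A ranking by Pearson correlation shares none of the 5, so the names depend on the measure of likeness.

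Outside the list, 120 genes of the same pathway and of the stress response that goes with GDF15 were examined, 119 with a row and 93 past the filter. Their lists were chosen with earlier results of these data known, so the shares and p-values given for them are a description. In siTARG1 58 of the 93 (62.4%) had an adjusted p under 0.05 in edgeR's quasi-likelihood fit, 33 higher and 25 lower, beside 46.6% of all genes. DESeq2 called 53, and 45 to 59 passed when single libraries were left out. The median log2 fold change was 0.14. In RACK1-Mut none of the 93 passed in edgeR or DESeq2, with 13 and 9 at an unadjusted p under 0.05. Over all 14024 genes, 687 (4.90%) had an unadjusted p under 0.05 in edgeR and 412 in DESeq2.

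**Figure D4:**
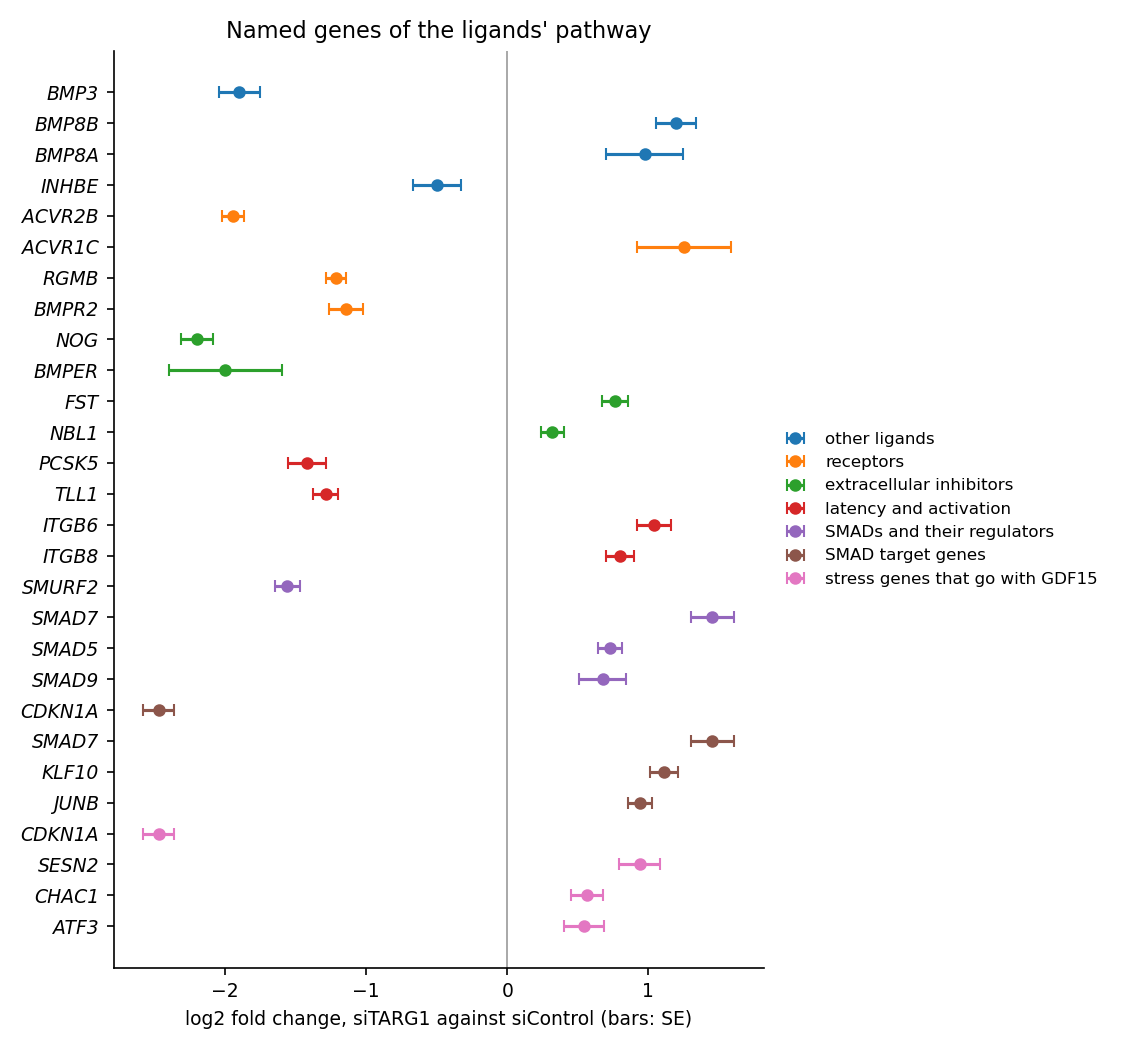
Log2 fold changes in siTARG1 against siControl, with standard errors as bars, of the pathway genes named by rule, coloured by list. SMAD7 and CDKN1A appear in 2 lists each. Genes lie on both sides of 0 in every list, from CDKN1A at -2.47 to SMAD7 at 1.45.

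Of 15 receptors and co-receptors tested, 12 (80%) passed in siTARG1, 5 higher and 7 lower, beside 46.6% of all genes. ACVR2B, a type II receptor for activins and GDF11, fell from 86.9 to 22.6 CPM (log2 fold change -1.94, standard error 0.08, adjusted p = 5.6e-10 from edgeR), and its paralog ACVR2A from 77.7 to 66.9 (-0.22, standard error 0.08, adjusted p = 0.046). BMPR2, the BMP type II receptor, fell from 51.3 to 23.2 CPM (-1.14, standard error 0.12, adjusted p = 3.4e-06) and RGMB, a BMP co-receptor, from 156 to 67.6 (-1.21, standard error 0.07). ACVR1C, a type I receptor, rose from 0.322 to 0.749 CPM (1.25, standard error 0.33). Its call rests on few counts and was lost without siControl replicate 1 (adjusted p = 0.11 from edgeR) and with coding-sequence counts (adjusted p = 0.14 from edgeR).

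Of the 11 other ligands tested, 4 (36.4%) passed, beside 46.6% of all genes, and fewer did without siControl replicate 1. BMP3, a BMP family ligand that binds ACVR2B, fell from 9.0 to 2.41 CPM (log2 fold change -1.90, standard error 0.15, adjusted p = 1.9e-07 from edgeR). BMP8B rose from 3.54 to 8.13 CPM (1.197, standard error 0.14) and BMP8A from 0.644 to 1.26 (0.97, standard error 0.27), and because these near-identical genes can share reads, their split is uncertain. BMP8A lost its call in DESeq2 and without siControl replicate 1 (adjusted p = 0.077 in each). INHBE, an activin beta subunit, fell by 0.50 on the log2 scale, but its adjusted p from edgeR was 0.45 without siControl replicate 1, 0.12 without siTARG1 replicate 2, 0.14 with coding-sequence counts and 0.051 with only the 4 libraries compared.

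Of 10 extracellular inhibitors, 3 rose and 2 fell, so that 50% passed, beside 46.6% of all genes. NOG, which encodes the BMP trap noggin, fell from 26.6 to 5.80 CPM (log2 fold change -2.20, standard error 0.12, adjusted p = 6.3e-09 from edgeR), a change about as large as that of GDF11. BMPER, a BMP-binding secreted protein, fell from 0.796 to 0.202 CPM (-2.00, standard error 0.40). FST, which encodes the activin and GDF11 trap follistatin, rose from 30.7 to 52.1 CPM (0.76, standard error 0.09, adjusted p = 1.2e-05 from edgeR), and its relative FSTL3 was at 15.2 and 16.4 (0.11, standard error 0.09). NBL1, in a row it shares with MICOS10, rose by a log2 fold change of 0.32, and its call was lost with coding-sequence counts (adjusted p = 0.24 from edgeR) and without siControl replicate 2 (adjusted p = 0.062 from edgeR).

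Of 16 genes of latency and activation, 6 rose and 4 fell, so that 62.5% passed, beside 46.6% of all genes. PCSK5, a proprotein convertase known to cleave the GDF11 precursor, fell from 8.73 to 3.28 CPM (log2 fold change -1.42, standard error 0.14, adjusted p = 1.6e-06 from edgeR). TLL1, a protease of the BMP1 family, which cuts inhibitors such as chordin, fell from 109 to 44.8 CPM (-1.29, standard error 0.09). ITGB6 and ITGB8, integrin subunits that release latent TGF-beta, rose from 6.58 to 13.5 CPM and from 194 to 336 CPM (1.04 and 0.80). FURIN, another convertase, rose from 15.4 to 26.3 CPM (0.77, standard error 0.09).

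Of the 16 SMADs and their regulators, 7 rose and 5 fell, so that 75% passed, beside 46.6% of all genes. SMURF2, a ubiquitin ligase that acts on SMADs and receptors, fell from 438 to 149 CPM (log2 fold change -1.56, standard error 0.09, adjusted p = 1.2e-08 from edgeR). SMAD7, an inhibitory SMAD, rose from 1.91 to 5.22 CPM (1.45, standard error 0.15, adjusted p = 3.5e-06). SMAD5 and SMAD9, which carry BMP signals, rose by log2 fold changes of 0.73 and 0.68, the latter with an adjusted p of 0.060 from edgeR without siControl replicate 1. SMAD2, which carries GDF11 and activin signals, rose from 112 to 161 CPM (0.53, standard error 0.07). SMAD3 was at 77.4 and 78.8 CPM (0.03, standard error 0.07). SMAD4, in a row that also covers ELAC1, fell to 64.2% of its siControl mean (log2 fold change -0.64, standard error 0.07).

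Of 20 SMAD target genes, 6 rose and 6 fell, so that 60% passed, beside 46.6% of all genes. Their median log2 fold change was 0.04. CDKN1A, which encodes the cell cycle inhibitor p21, fell from 28.6 to 5.16 CPM (log2 fold change -2.47, standard error 0.11, adjusted p = 1.6e-09 from edgeR). KLF10, a TGF-beta-induced transcription factor, rose from 11.5 to 24.7 CPM (1.11, standard error 0.10), and JUNB, an AP-1 subunit, from 20.8 to 40.1 (0.94, standard error 0.08). ID1, a BMP target, was at 182 and 185 CPM (0.02, standard error 0.09). Of 11 stress genes that often rise with GDF15, 8 (72.7%) passed, beside 46.6% of all genes. Of these, 6 rose and 2 fell, CDKN1A and ASNS being those that fell. SESN2, a target of ATF4 and p53, rose from 18.6 to 35.8 CPM (0.94, standard error 0.14, adjusted p = 0.00011 from edgeR). Among other ATF4 targets in the list, CHAC1 and ATF3 rose by log2 fold changes of 0.57 and 0.54. ASNS fell by 0.30 on the log2 scale (adjusted p = 0.042 from edgeR). Its libraries overlapped, at 286 and 206 CPM in siControl and 207 and 191 in siTARG1. DDIT3 and TRIB3 did not pass (0.20 and 0.31, adjusted p = 0.12 and 0.053 from edgeR). The remaining genes that rose were ATF4 itself, MDM2 and PPP1R15A (log2 fold changes 0.39, 0.33 and 0.22). ATF3 had an adjusted p of 0.059 from edgeR without siControl replicate 2.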

How the data were processed

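RNA was taken from the input lysates of ribosome profiling and sequenced as rRNA-depleted, strand-specific libraries. Per the study's methods, the authors removed rRNA reads with Bowtie 1.1.2, aligned the rest with TopHat 2.1.1, keeping up to 64 hits a read, to an hg19 (GRCh37) transcriptome, and counted with Plastid. Per the file headers, alignments of 25 to 51 bases were counted on Gencode v24lift37 positions. The deposited values are estimated counts for each row over exons, coding sequence and untranslated regions, which need not be whole, and the authors' RPKM, which is scaled by the row's length and by all alignments of the library. Since reads with several hits were kept, near-identical genes can share counts.

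Row names were matched to Gencode through 36595 transcript names, of which 94.7% matched. Of the rows, 553 were unmatched (1.19% of counts) and 452 joined several genes (4.15%). Where a gene had more than 1 row, that with most counts was used. GREM1 and PECAM1 had no matching row and were not analysed here. Exon counts were rounded and fitted with edgeR 4.0.16 (TMM, filterByExpr, quasi-likelihood, R 4.3.3) over 4 groups with 4 residual degrees of freedom. P-values were adjusted by Benjamini-Hochberg over 14024 genes, with a threshold of 0.05. The standard error is the log2 fold change over the square root of F. The scripts were tested on simulated data. CPM used TMM-scaled library sizes.

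The members and lists were chosen with earlier results of these data known. Named genes were all members, the genes most like GDF11 (5), OARD1, RACK1 and, in each list and comparison, up to 4 genes past the threshold with the greatest absolute log2 fold change and no overlap between groups. Genes named outside that rule (ACVR2A, FSTL3, FURIN, DDIT3, TRIB3, SMAD2, SMAD3, SMAD4, ID1, KRT7, KRT8, KRT18, MSLN, MUC16, COL1A1, COL3A1, PDGFRB, CD68, CD3E, CDH5, ASNS, ATF4, MDM2, PPP1R15A) were chosen after their values were seen. Alternatives were DESeq2 1.42.0, RLE scaling, other filters, only the 4 libraries compared, a replicate block, rows summed by symbol, coding-sequence counts, each library left out, and the authors' RPKM. Protein sequences were not used here.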

Additional observations from a re-analysis of the deposited data

How the results depend on the processing

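With 2 libraries in each group the intervals are wide, and INHBA and BMP2 were too low in counts to be tested. Intervals and floors cover counting error and library spread only. For the ligands in siTARG1 against siControl, 3 to 5 passed when single libraries were left out, with 3 without siTARG1 replicate 1. The log2 fold change of GDF11 ran from -2.21 to -2.10 when single libraries were left out, was -1.76 with coding-sequence counts, and was -2.04 and -1.99 in the authors' RPKM with pseudocounts of 0.01 and 0.1. No ligand passed in RACK1-Mut against RACK1-WT under any alternative, and 2 signs reversed: GDF15 (-0.28 to 0.037) and BMP7 (-0.023 to 0.12) when single libraries were left out. Of the other pathway genes, 1 (ASNS, lower in RACK1-Mut) passed in RACK1-Mut with only the 4 libraries of the comparison. By Pearson correlation 0 of the 5 genes most like GDF11 were shared. The cause of these differences was not tested.

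Over all genes, RACK1-Mut against RACK1-WT had 1 call in the main fit, 17 with DESeq2, 15 with no filter, 0 with at least 10 counts in every library, 49 with only its 4 libraries, 2 with coding-sequence counts and 0 to 9 when single libraries were left out. Replicates with the same number are not labelled as sharing anything else, and the main fit did not pair them. Their deviations correlated at 0.26 in the siRNA groups and 0.03 in the RACK1 lines. The share of alignments on exons was 44.5% and 47.6% in replicate 1 of siControl and siTARG1, and 38.4% and 39.1% in replicate 2. What the siRNA replicates have in common was not tested. With the replicate number as a block, 6 ligands passed in siTARG1 and none in RACK1-Mut, and the calls over all genes were 6559 and 3.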
